A study of Mus musculus with 15 samples.

Results

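The genes described here are 31 genes of fatty acid oxidation, 23 whose products act in mitochondria, 6 whose products act in peroxisomes (Acox3, Ehhadh, Hsd17b4, Acaa1a, Crot and Acot8) and 2 whose products act in both (Crat and Eci2). They were found by symbol, and all 31 were among the 55486 genes of the count table. Of these, 30 passed the filter on low counts and were tested among 14843 genes. Pdk4 did not pass it.

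Macrophages had been sorted from primary gliomas of mice that carry PDGFB as the driver and lack Ink4a/Arf (Ink4a/ArfKO). This genotype was shared by all groups, and no tumour-free brain was among them. The groups were lipid-laden microglia (4 libraries), non-lipid-laden microglia (4), lipid-laden monocyte-derived macrophages (MDM, 3 libraries) and non-lipid-laden MDM (4). Microglia are the resident macrophages of the brain, MDM enter the tumour from the blood, and lipid-laden cells are those sorted as carrying more stored lipid; the gate used for lipid was not found in the sources at hand. Each library carries 1 of the numbers 221, 224, 431 and 718, and per-library values are given in that order (lipid-laden MDM of number 431 were not analysed here). The labels do not say that libraries of a group came from separate mice, so p-values measure the spread between these libraries. In bulk RNA of sorted cells, fewer cells of a type and less RNA per cell cannot be told apart.

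Fatty acids are activated to acyl-CoA in the cytosol and reach the mitochondrial matrix by the carnitine shuttle. There they are shortened in repeated rounds of dehydrogenation, hydration, a second dehydrogenation and thiolysis, and the electrons pass to the respiratory chain through the electron transfer flavoprotein. Peroxisomes run a parallel chain on very long and branched fatty acids, start it with an oxidase that makes hydrogen peroxide, and hand shortened acyl groups on as carnitine esters. In macrophages this pathway is a known route for fatty acids taken up with lipid-rich debris such as myelin.

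Promoter sequences are shown for the 2 members whose difference held under every alternative tried, Slc25a20 and Acaa1a, and for the stretch shared by Hadha and Hadhb, whose products form a single enzyme complex. RefSeq promoters (GRCm38.p6, 250 bases before and 50 after the start site) were found for 26 of 31 members. Capitals mark CCAAT, or its reverse complement ATTGG, and AGGTCA, the nuclear receptor motif, would be marked likewise on either strand. The Slc25a20 promoter lies at chr9:108661886-108662185 (+ strand) and held neither motif.
Slc25a20: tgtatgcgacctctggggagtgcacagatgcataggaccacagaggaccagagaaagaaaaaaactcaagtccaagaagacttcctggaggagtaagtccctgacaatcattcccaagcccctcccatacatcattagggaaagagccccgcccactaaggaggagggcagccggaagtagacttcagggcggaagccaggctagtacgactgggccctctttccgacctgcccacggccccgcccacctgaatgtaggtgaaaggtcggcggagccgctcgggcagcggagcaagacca
The Acaa1a promoter lies at chr9:119341044-119341343 (+ strand) and held 4 CCAAT matches. By the deposited coordinates the gene starts earlier, at chr9:119339676, so this RefSeq window lies within the gene.
Acaa1a: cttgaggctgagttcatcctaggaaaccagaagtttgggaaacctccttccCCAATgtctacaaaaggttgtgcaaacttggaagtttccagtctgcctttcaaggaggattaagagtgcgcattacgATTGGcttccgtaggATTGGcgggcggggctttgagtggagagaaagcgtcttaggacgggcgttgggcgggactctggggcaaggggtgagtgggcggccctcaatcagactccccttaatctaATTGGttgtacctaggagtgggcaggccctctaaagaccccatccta
Hadha (- strand) and Hadhb (+ strand) start head to head with 272 bases between their RefSeq start sites. Of these, 228 bases at chr5:30155003-30155230 lie in both promoters and are given on the + strand, with neither motif in them. By the deposited coordinates the Hadha gene extends to chr5:30155162, so part of this stretch lies within it.
Hadha and Hadhb: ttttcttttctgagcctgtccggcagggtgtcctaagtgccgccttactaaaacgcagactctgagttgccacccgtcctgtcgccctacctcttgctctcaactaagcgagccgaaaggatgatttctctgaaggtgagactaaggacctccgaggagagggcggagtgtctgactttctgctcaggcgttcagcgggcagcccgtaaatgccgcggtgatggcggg

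CCAAT was found for 13 of the 26 members with a promoter (50%), against 37.4% of 32851 promoters of the same length. A member counted if any of its promoters held the motif, and Pcca had more than a single promoter. Members are thus set against single promoters here and below. AGGTCA was found in 5 (19.2%), against 16.3% of all promoters, and those members were Acadm, Acadvl, Cpt1a, Echs1 and Pcca. The longer motifs TNAAGGTCA, known for estrogen-related receptors, and the direct repeat of AGGTCA with any 1 base between its copies, known for PPAR with RXR, both contain AGGTCA and were in none of the 26, against 1.28% and 0.0396% of all promoters. The core motif of NRF1 (GCGCA, any base, GCGC) was in 3 members (Etfb, Etfdh and Pccb; 11.5%), against 4.6% of all promoters. A match is a description of letters, and a promoter without one says nothing of the factor.

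Total counts were between 7798952 and 11419338 per library. Between the non-lipid-laden groups, all 10 microglia markers were lower and all 10 MDM markers higher in MDM than in microglia. Lipid-laden MDM stood apart from both. On the first principal component (36.2% of variance) they lay between 7.96 and 35.9, against 111 to 127 in non-lipid-laden MDM, while all microglia lay below -60. The lipid-laden libraries numbered 221 stood apart on the second component in both cell types.

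Levels per transcript length (RPKM, from the principal transcript of each gene) set the order of the members. Over the 15 libraries Etfa, the alpha subunit of the electron transfer flavoprotein, had the highest mean at 136 ± 36.0 RPKM. Hsd17b10, a mitochondrial hydroxyacyl-CoA dehydrogenase, followed at 99.0 ± 19.6, Acaa1a, the peroxisomal thiolase, at 88.7 ± 22.7, Acaa2, the mitochondrial thiolase, at 84.7 ± 21.6 and Acot13, a mitochondrial acyl-CoA thioesterase, at 82.8 ± 19.7 RPKM (SD over libraries, n = 15). The last 4 of these lie within each other's SD, so their order is not firm. It also depends on the length used: per length of all exons of a gene joined, Acaa1a had 35.4 RPKM and ranked 7 of 31, while Acaa2 kept 84.7 RPKM and ranked 2. The lowest tested members were Ehhadh, the peroxisomal bifunctional enzyme, at 2.64 ± 1.84 RPKM and Etfb, the beta subunit of the flavoprotein, at 4.74 ± 0.914 RPKM. The Etfb count is uncertain: 58.25% of its exon bases are shared with other annotated genes on the same strand, and how such reads were counted is not known. Median levels were 34.8 RPKM over the 23 mitochondrial members and 20.2 RPKM over the 6 peroxisomal members.

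The members differed in how far they varied between groups. Slc25a20, the carrier that brings acylcarnitines across the inner mitochondrial membrane, had the widest range of group means, with a highest mean 3.71 times the lowest. Ehhadh (3.30), Crat (2.75), Cpt2 (2.37) and Pccb (2.27) came next, and the other tested members stayed below 2. These 4 ranked 30, 22, 27 and 26 of 31 by level, and Slc25a20 ranked 10. Ehhadh and Cpt2 also spread most within groups, with median coefficients of variation of 68.3% and 48.1%, against 15.1% for Slc25a20 and 7.69% for Acaa1a. The heat map of the members by library shows Slc25a20 as the row that most clearly marks a group.

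**Figure D1:**
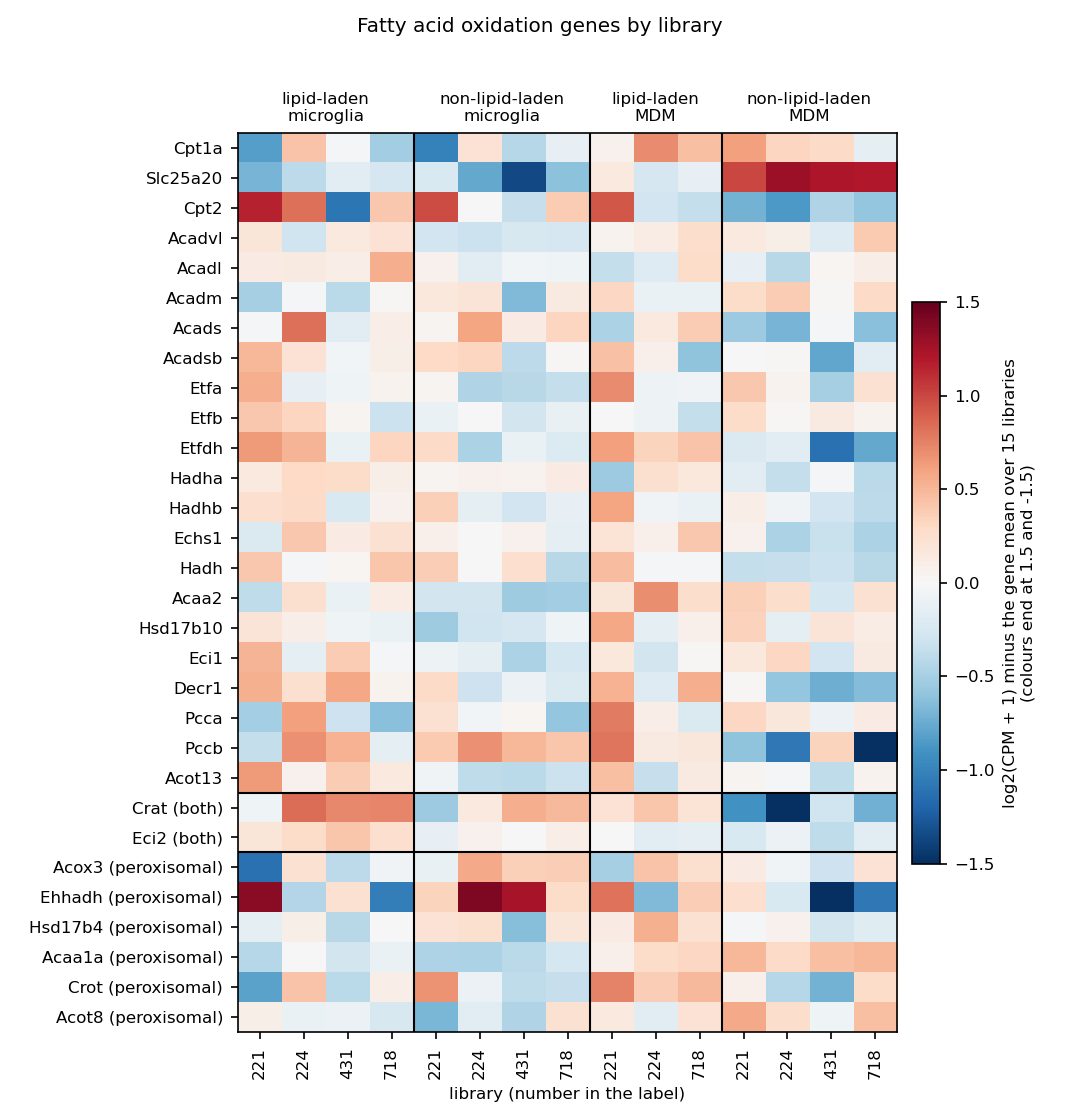
Colours give log2(CPM + 1) minus the mean of the gene over 15 libraries, for 30 members (rows; mitochondrial above, both compartments in the middle, peroxisomal below) in each library (columns, by group). Slc25a20 is high in the 4 non-lipid-laden MDM libraries, and most other rows differ as much within groups as between them.

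The comparison of lipid-laden with non-lipid-laden microglia asks what lipid load goes with in the resident cells. None of the 30 tested members passed the test (edgeR's quasi-likelihood test, adjusted p under 0.05), where 0% of all genes tested were called in either direction. At an unadjusted p under 0.05 there were 6 of 30 members and 1367 of 14843 genes tested. With the library number as a block, since same-numbered libraries deviated together here, 119 genes (0.802%) were called and still no member. DESeq2 called 147 genes, and limma-voom none, and neither called a member. The values below are therefore descriptions.

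Acot13 had the smallest p. It measured 91.2, 61.2, 76.0 and 64.7 CPM (counts on a common library size) in lipid-laden microglia, against 55.9, 44.5, 44.0 and 46.3 CPM in non-lipid-laden microglia. The groups did not overlap and all 4 number-matched pairs were higher with lipid, with a log2 fold change of 0.62 ± 0.19 (approximate SE) and an adjusted p of 0.34. Acadvl, the very-long-chain acyl-CoA dehydrogenase, measured 78.9, 56.5, 77.1 and 80.9 CPM in lipid-laden microglia, against 56.6, 55.7, 58.6 and 58.4 CPM in non-lipid-laden microglia. The library numbered 224 lay at the level of the non-lipid-laden group, the other three above it (log2 fold change 0.36 ± 0.16, adjusted p = 0.51). Of the Acadvl exon bases 42.85% are shared with Dvl2 on the opposite strand, and the strand setting of the counting is not known. Eci1, which moves double bonds of unsaturated chains into place for the pathway, measured 70.8, 44.4, 64.2 and 48.2 CPM in lipid-laden microglia, against 46.7, 44.8, 35.1 and 40.8 CPM in non-lipid-laden microglia (log2 fold change 0.44 ± 0.20, adjusted p = 0.51). These groups overlapped by 1 library.

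By role, the members of most steps had fold changes of the same sign without any passing. All 4 genes of the carnitine shuttle were above 0: Cpt1a, which makes acylcarnitine at the outer membrane, had 0.11 ± 0.29, Slc25a20 0.33 ± 0.20, Cpt2, which turns acylcarnitine back to acyl-CoA, 0.21 ± 0.44, and Crat, carnitine acetyltransferase, 0.39 ± 0.29 (log2 fold changes ± SE). All 6 genes of the later mitochondrial steps (Hadha, Hadhb, Echs1, Hadh, Acaa2 and Hsd17b10) lay between 0.13 and 0.38, with Acaa2 the highest. The electron transfer genes Etfa, Etfb and Etfdh had 0.41 ± 0.23, 0.31 ± 0.45 and 0.47 ± 0.23. Among the acyl-CoA dehydrogenases, Acadl (long chains) had 0.29 ± 0.17, Acadsb (branched chains) 0.12 ± 0.25, Acads (short chains) -0.05 ± 0.26 and Acadm (medium chains) -0.21 ± 0.20. Pcca and Pccb, the subunits of propionyl-CoA carboxylase, had -0.06 ± 0.30 and -0.27 ± 0.44. Thus 18 of 22 tested mitochondrial members had a positive fold change, with a median of 0.25, against -0.02 over all genes, of which 47.6% were positive. Genes of mitochondrial content, a list of citric acid cycle, import and other mitochondrial genes outside the pathway, were also mostly positive, 13 of 17, with a median of 0.10.

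The 6 peroxisomal members lay lower in this comparison than the mitochondrial ones. The median log2 fold change of the 6 was -0.14, and 2 of 6 were above 0 (Acaa1a at 0.21 ± 0.12 and Acot8, a peroxisomal thioesterase, at 0.16 ± 0.28). Acox3, an acyl-CoA oxidase for branched chains, measured 38.0, 98.1, 63.4 and 81.0 CPM in lipid-laden microglia, against 77.4, 125.3, 107.7 and 108.9 CPM in non-lipid-laden microglia. It was lower with lipid in all 4 number-matched pairs, although the groups overlapped (log2 fold change -0.58 ± 0.27, unadjusted p = 0.045, adjusted p = 0.53). Eci2, counted with both compartments, did not overlap between the groups, at 83.4, 89.6, 98.8 and 87.7 CPM in lipid-laden microglia, against 67.7, 76.9, 73.0 and 79.1 CPM in non-lipid-laden microglia (0.28 ± 0.13, adjusted p = 0.53). With Crat and Eci2 counted as peroxisomal, the median of that compartment was 0.01, so its sign rests on where these 2 genes are placed. Peroxisomal genes outside the members did not lie lower than all genes. Of 20 further peroxisomal genes 10 were positive, with a median of 0.03, and of 16 peroxisome assembly genes 9, with a median of 0.02.

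The same comparison in MDM gave 3 called members. Slc25a20 was lower in lipid-laden MDM, and Crat and Etfdh were higher. Of all genes tested, 5.21% were called higher and 2.96% lower, so 2 of 30 higher and 1 of 30 lower are counts near the background. The forest plot of lipid-laden over non-lipid-laden cells shows these 3 genes as the filled points.

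Slc25a20 measured 89.2, 67.6 and 74.3 CPM in lipid-laden MDM, against 162.9, 197.7, 188.4 and 187.1 CPM in non-lipid-laden MDM. Every lipid-laden library lay below every non-lipid-laden one, and the log2 fold change was -1.26 ± 0.23 (adjusted p = 0.0028). The gene lies at chr9:108662088-108684641 and shares no exon bases with another annotated gene. Its call held in all 14 alternatives, with values between -1.38 and -1.17. Crat, which exchanges acetyl groups between CoA and carnitine, measured 71.8, 83.1 and 71.2 CPM in lipid-laden MDM, against 32.4, 17.6, 49.97 and 37.1 CPM in non-lipid-laden MDM. These groups did not overlap either (log2 fold change 1.14 ± 0.32, adjusted p = 0.038). The Crat call was lost when any 1 of the lipid-laden MDM libraries 221, 224 and 718 was left out (adjusted p = 0.077, 0.11 and 0.087), and also without non-lipid-laden MDM 221, 224 or 718 (0.074, 0.085 and 0.067).

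Etfdh, the dehydrogenase that passes electrons from the flavoprotein to ubiquinone, measured 125.6, 103.2 and 110.4 CPM in lipid-laden MDM, against 69.9, 72.8, 37.0 and 47.3 CPM in non-lipid-laden MDM. Every lipid-laden library lay above every non-lipid-laden one (log2 fold change 0.99 ± 0.25, adjusted p = 0.020). Without lipid-laden MDM 221 or 718, or non-lipid-laden MDM 718, its adjusted p was 0.073, 0.061 and 0.059. Its partners did not pass: Etfa had 0.16 ± 0.24 and Etfb -0.32 ± 0.49. The Etfa level per length was therefore a log2 ratio of 1.68 ± 0.319 over that of Etfdh in lipid-laden MDM (n = 3), against 2.57 ± 0.330 in non-lipid-laden MDM (n = 4).

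**Figure D2:**
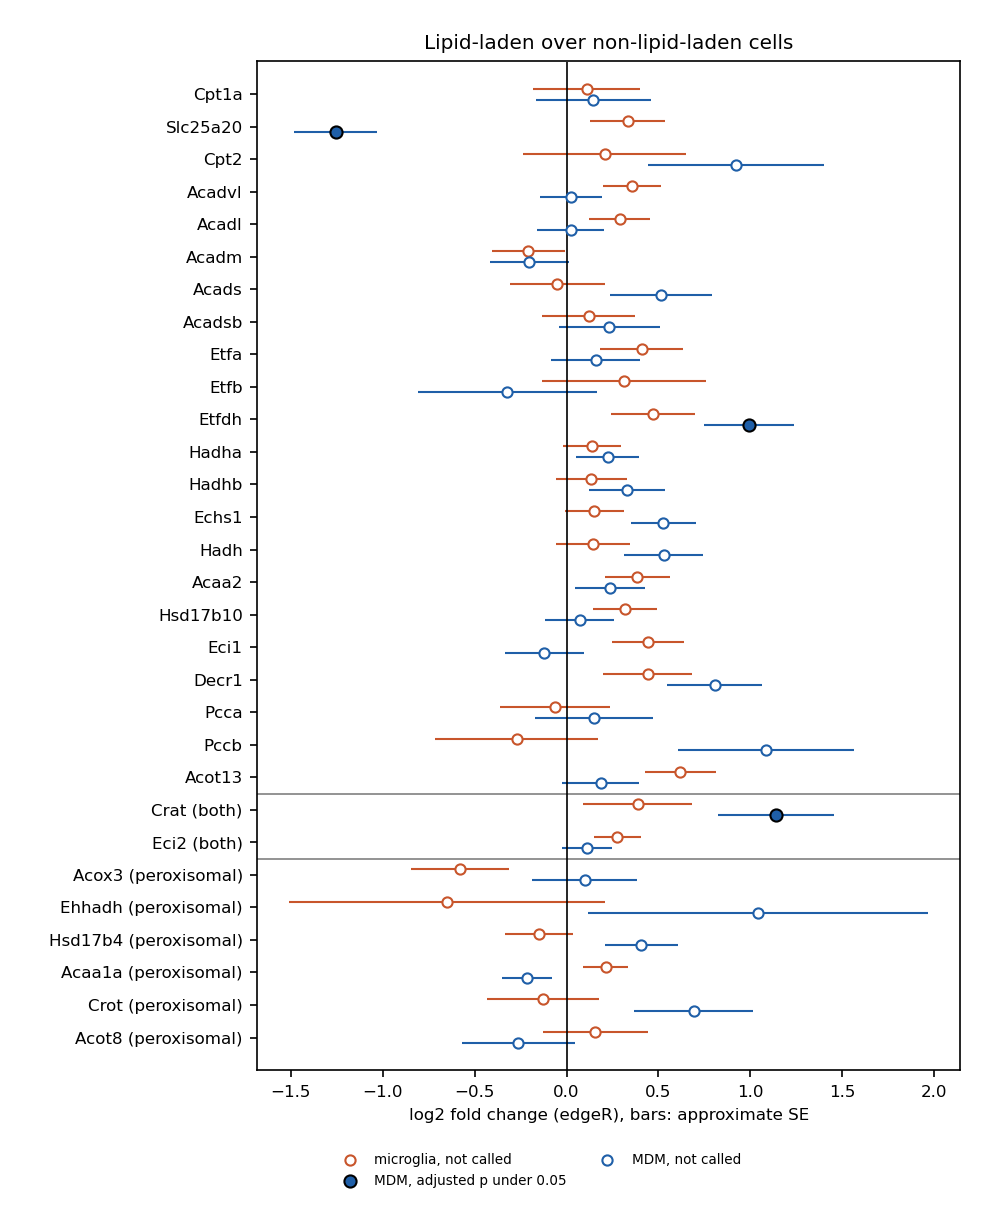
Points give the log2 fold change of each tested member (rows, by compartment) in lipid-laden over non-lipid-laden microglia and MDM, with bars for the approximate SE; filled points passed an adjusted p of 0.05. Slc25a20 lies at 0.33 in microglia and -1.26 in MDM, and the 3 filled points all belong to MDM.

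Other members of the pathway had positive fold changes in lipid-laden MDM that did not pass. Decr1, dienoyl-CoA reductase, which clears conjugated double bonds, averaged 46.1 ± 12.5 CPM in lipid-laden MDM and 26.4 ± 7.14 CPM in non-lipid-laden MDM (log2 fold change 0.81 ± 0.26, adjusted p = 0.067). It was called with the library number as a block (adjusted p = 0.032), with DESeq2 (0.043), without lipid-laden MDM 224 (0.036) and without non-lipid-laden MDM 221 (0.028). Echs1, enoyl-CoA hydratase, averaged 125.7 ± 14.4 CPM in lipid-laden and 87.3 ± 16.9 CPM in non-lipid-laden MDM (0.53 ± 0.17, adjusted p = 0.077), and was called with DESeq2 (0.04995) and without non-lipid-laden MDM 221 (0.027). Hadh, the dehydrogenase for medium and short chains, had 0.53 ± 0.22, Pccb 1.09 ± 0.48 and Cpt2 0.92 ± 0.48, of which Pccb was called with limma-voom (adjusted p = 0.047) and without non-lipid-laden MDM 431 (0.033). The acyl-CoA dehydrogenases Acadvl and Acadl stood at 0.03 ± 0.17 and 0.02 ± 0.18, and Acadm at -0.20 ± 0.21. In the peroxisomal chain, Hsd17b4, the multifunctional enzyme, had 0.41 ± 0.20, Crot, which makes medium-chain acylcarnitines, 0.69 ± 0.33, Acaa1a -0.21 ± 0.13 and Acot8 -0.26 ± 0.31. Medians were 0.20 over the mitochondrial and 0.25 over the peroxisomal members, against 0.04 over all genes, and 24 of 30 members were above 0, against 52.2% of all genes. The mitochondrial median was 0.11 without lipid-laden MDM 221 and also without non-lipid-laden MDM 431, and the peroxisomal median was 0.097 without lipid-laden MDM 224 and 0.41 without lipid-laden MDM 221.

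Markers of other cells moved along this comparison as well. The summed microglia markers ranged from 7139 to 10786.5 CPM in lipid-laden MDM, against 2572 to 4084 CPM in non-lipid-laden MDM, and 9 of the 10 were called higher. The summed dendritic cell markers ranged from 180 to 239 CPM in lipid-laden MDM, against 1106 to 2712 CPM in non-lipid-laden MDM, with 6 of 10 called lower and none at 0 in either group. The summed progenitor and glioma markers ranged from 66.6 to 138 CPM in lipid-laden MDM, against 12.01 to 25.3 CPM in non-lipid-laden MDM, where 2 of 10 were at 0. Of the MDM markers 4 of 10 were called lower, with sums of 5859 to 7373 CPM in lipid-laden MDM, against 7168 to 7613 CPM in non-lipid-laden MDM. Neutrophil markers summed to 31.4 to 334 CPM in lipid-laden MDM, where 1 of 6 was at 0, against 9.16 to 53.4 CPM in non-lipid-laden MDM, where 2 of 6 were at 0, and 2 were called higher. Astrocyte markers summed to 67.2 to 115 CPM in lipid-laden MDM, against 59.8 to 93.4 CPM in non-lipid-laden MDM, with 2 of 9 tested called higher and 2 of 10 at 0 in both groups. Of the oligodendrocyte markers 1 of 6 tested was called higher, and no T and NK cell or endothelial marker was called (edgeR; none had an unadjusted p under 0.05). For Slc25a20 and Crat, lipid-laden MDM lay on the side of the microglia. For Etfdh their mean of 113 CPM lay above that of non-lipid-laden (76.2 CPM) and of lipid-laden microglia (105.5 CPM). The part of these other cells in the differences was not tested.

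The lipid effect is here the fold change between lipid-laden and non-lipid-laden cells of a type, without a claim of cause. It was set against the cell type by the difference of the 2 fold changes. Slc25a20 was the 1 member that passed. The difference, MDM minus microglia, was -1.59 ± 0.30 on the log2 scale (adjusted p = 0.011), and the call held in all 21 alternatives, between -1.83 and -1.44. Of all genes tested, 1.6% were called higher and 0.93% lower. Acaa1a (-0.43 ± 0.18) and Pccb (1.36 ± 0.65) followed, with adjusted p of 0.25 and 0.32. For Crat and Etfdh, called in MDM and not in microglia, the difference was 0.75 ± 0.43 and 0.52 ± 0.34 (adjusted p = 0.42 and 0.47), so their lipid effect was not shown to differ between the cell types. The median difference was 0.06 over the mitochondrial and 0.62 over the peroxisomal members, against 0.10 over all genes. The 6 peroxisomal values ran from -0.43 to 1.69 (Ehhadh, ± 1.26), and none was called. Outside the members, the median was 0.16 over 20 further peroxisomal genes and 0.04 over 16 peroxisome assembly genes.

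Without lipid load, MDM and microglia differed in 5 members: Slc25a20, Acaa1a and Acaa2 were higher in MDM, and Crat and Acads lower. Of all genes tested, 10.7% were called higher and 12.5% lower, so 3 and 2 of 30 members are again near the background. This comparison shares the non-lipid-laden MDM libraries with the MDM lipid comparison, and the microglia libraries with the other one. A gene high or low in these shared libraries enters both.

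Slc25a20 measured 162.9, 197.7, 188.4 and 187.1 CPM in MDM, against 68.5, 47.0, 30.9 and 52.2 CPM in microglia. No MDM library came near the microglia (log2 fold change 1.89 ± 0.21, adjusted p = 1.1e-05). Acaa1a, which cleaves the last intermediate of the peroxisomal chain, measured 215.3, 184.7, 207.4 and 215.2 CPM in MDM, against 109.6, 108.8, 114.3 and 125.7 CPM in microglia. It was higher in every MDM library, with the smallest SE among the called members (0.84 ± 0.13, adjusted p = 0.00016), and its call held in all 15 alternatives. The Acaa1a gene lies at chr9:119339676-119350299 on the + strand, and 6.57% of its exon bases are shared with Myd88 on the opposite strand.

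Acaa2 measured 160.5, 149.5, 103.4 and 146.0 CPM in MDM, against 103.1, 103.2, 85.6 and 86.5 CPM in microglia. The groups met at about 103 CPM without overlap (log2 fold change 0.56 ± 0.18, adjusted p = 0.030), and the call was lost without microglia 431 or 718 (0.064 and 0.074) or MDM 221, 224 or 718 (0.084, 0.072 and 0.067). Crat measured 32.4, 17.6, 49.97 and 37.1 CPM in MDM, against 42.0, 68.7, 90.5 and 87.1 CPM in microglia. It was lower on average in MDM, and the groups overlapped (-1.07 ± 0.30, adjusted p = 0.017). The adjusted p was 0.058 without microglia 431 and 0.051 without microglia 718. Acads, the short-chain acyl-CoA dehydrogenase, measured 30.9, 27.8, 45.2 and 29.3 CPM in MDM, against 46.9, 69.4, 49.8 and 57.1 CPM in microglia. Every MDM library lay below every microglia library, but the call stood close to the threshold (-0.75 ± 0.26, adjusted p = 0.049). It was lost in 9 of 15 alternatives, with an adjusted p of up to 0.15 when microglia 224 was left out, among them those without microglia 221 (0.054), 431 (0.074) or 718 (0.095), without MDM 221 (0.10), 224 (0.12) or 718 (0.11), and with another scaling.

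**Figure D3:**
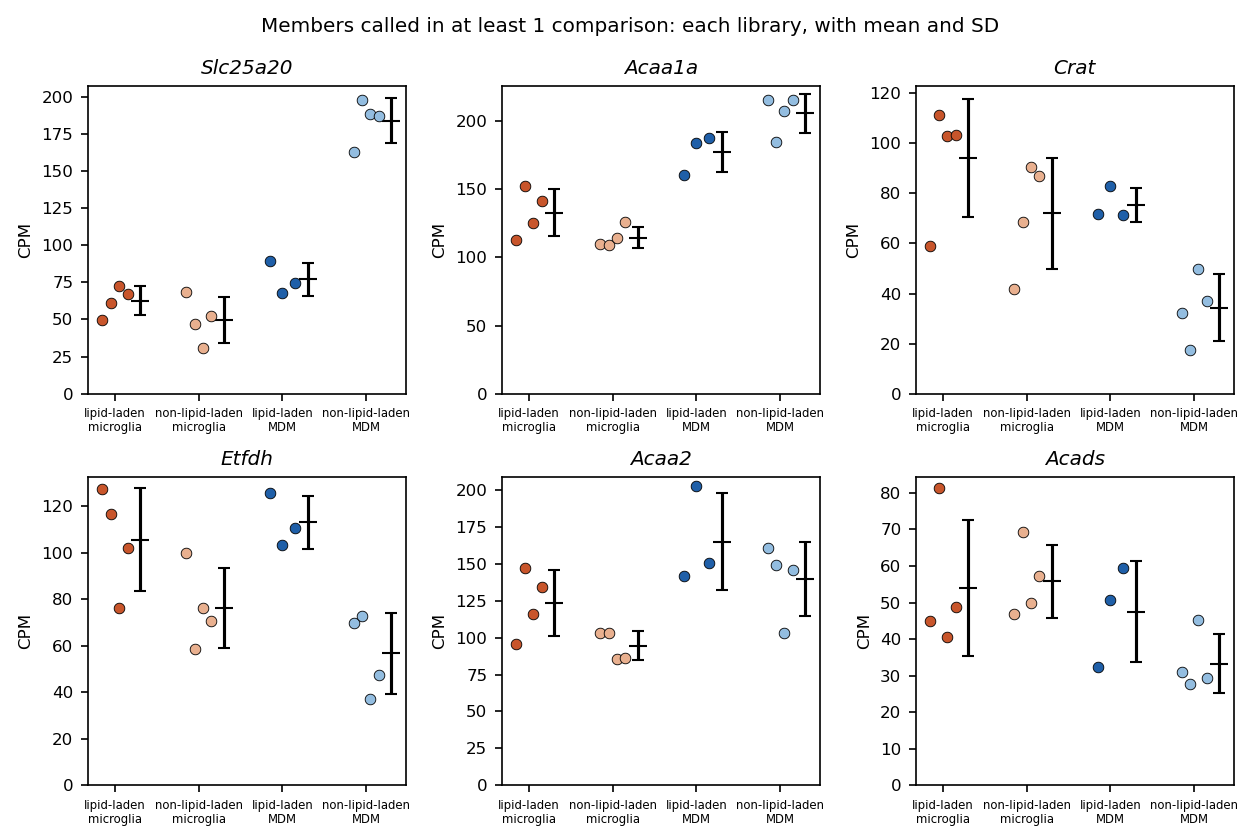
Each point is 1 library (CPM on the y axis, from 0) for the 6 members called in at least 1 comparison, by group, with the group mean and SD at the right of the points. Slc25a20 lies between 162.9 and 197.7 CPM in non-lipid-laden MDM and below 90 CPM in every other library.

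Pccb, which did not pass, measured 16.1, 11.4, 31.7 and 3.71 CPM in MDM, against 33.0, 40.8, 35.5 and 33.8 CPM in microglia. No MDM library reached the lowest microglia library (log2 fold change -1.19 ± 0.45, adjusted p = 0.070), and it was called without MDM 431 (-1.77, adjusted p = 0.0081), with the library number as a block (-1.43, 0.023), with DESeq2 (-1.17, 0.041) and with limma-voom (-1.70, 0.011). Its partner subunit Pcca measured 41.2, 37.5, 31.1 and 36.1 CPM in MDM, against 39.1, 32.1, 33.9 and 21.7 CPM in microglia (0.20 ± 0.30, adjusted p = 0.69). The log2 ratio of Pcca over Pccb, each per length, was 1.42 ± 1.36 in MDM (n = 4), against -0.36 ± 0.376 in microglia (n = 4). Hadha and Hadhb, which share the promoter stretch above, did not pass: their fold changes were -0.31 ± 0.16 and -0.12 ± 0.19, and the log2 ratio of Hadha over Hadhb was -1.205 ± 0.264 in MDM and -1.002 ± 0.297 in microglia.

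The median log2 fold change of the members between MDM and microglia was -0.13, close to that of all genes at -0.12. It was 0.08 over the mitochondrial and -0.16 over the peroxisomal members, and the genes of single steps went both ways: Cpt1a stood at 0.57 ± 0.29 and Cpt2 at -1.04 ± 0.45, Hsd17b10 at 0.42 ± 0.17 and Hadh at -0.45 ± 0.20. Cpt2, at 11.4, 10.2, 13.8 and 12.6 CPM in MDM, against 39.0, 19.1, 15.0 and 25.4 CPM in microglia, had an adjusted p of 0.11, and 0.041 in a fit of these groups alone. Acadvl was called with DESeq2 (adjusted p = 0.044) and without MDM 431 (0.032), and Hsd17b10 without the lipid-laden libraries numbered 221 (0.042), which enter through the shared fit. Markers of other cells moved with this comparison in both directions. Dendritic cell markers summed to 1106 to 2712 CPM in MDM and 33.1 to 58.9 CPM in microglia. T and NK cell markers summed to 32.3 to 178 CPM in MDM and 0 to 9.03 CPM in microglia. Progenitor and glioma markers went the other way, at 12.01 to 25.3 CPM in MDM and 123 to 397 CPM in microglia, with 9 of 10 called lower. Of the oligodendrocyte markers 1 of 6 tested was called higher and 2 lower, and of the astrocyte markers 1 of 9 higher and 1 lower. The part of these other cells was not tested.

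Between the lipid-laden groups no member passed, where 2.2% of all genes were called higher in lipid-laden MDM and 0.579% lower. At an unadjusted p under 0.05 there were 3 of 30 members and 2188 of 14843 genes tested. The median log2 fold change was 0.39 over the peroxisomal members, of which 5 of 6 were above 0, and 0.08 over the mitochondrial members, of which 12 of 22 were, against -0.03 over all genes. Acaa1a measured 160.3, 183.9 and 187.5 CPM in lipid-laden MDM, against 112.8, 152.2, 125.0 and 141.1 CPM in lipid-laden microglia. The groups did not overlap, but the fold change was 0.42 ± 0.13 with an adjusted p of 0.13. Eci2 measured 73.1, 65.4 and 66.9 CPM in lipid-laden MDM, against 83.4, 89.6, 98.8 and 87.7 CPM in lipid-laden microglia (-0.39 ± 0.14, adjusted p = 0.18). These did not overlap either, and DESeq2 called Eci2 as the 1 member, at an adjusted p of 0.030. Acaa2 measured 141.9, 202.6 and 150.4 CPM in lipid-laden MDM, against 95.8, 147.3, 116.2 and 134.6 CPM in lipid-laden microglia, with overlap (0.42 ± 0.19, adjusted p = 0.32). Slc25a20, at 89.2, 67.6 and 74.3 CPM in lipid-laden MDM and 49.5, 61.0, 72.4 and 67.4 CPM in lipid-laden microglia, had a fold change of 0.30 ± 0.22 (adjusted p = 0.60). Summed dendritic cell markers were 180 to 239 CPM in lipid-laden MDM, against 21.7 to 34.5 CPM in lipid-laden microglia. For T and NK cell markers the sums were 30.5 to 107 and 0 to 6.43 CPM. Of these markers 6 of 10 and 4 of 10 were called higher, and none lower. Progenitor and glioma markers summed to 66.6 to 138 CPM in lipid-laden MDM, against 169 to 453 CPM in lipid-laden microglia, with 2 of 10 called lower. Among 25 glycolysis and hypoxia genes 8 were called lower and none higher. The part of these in the values of the members was not tested.

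**Figure D4:**
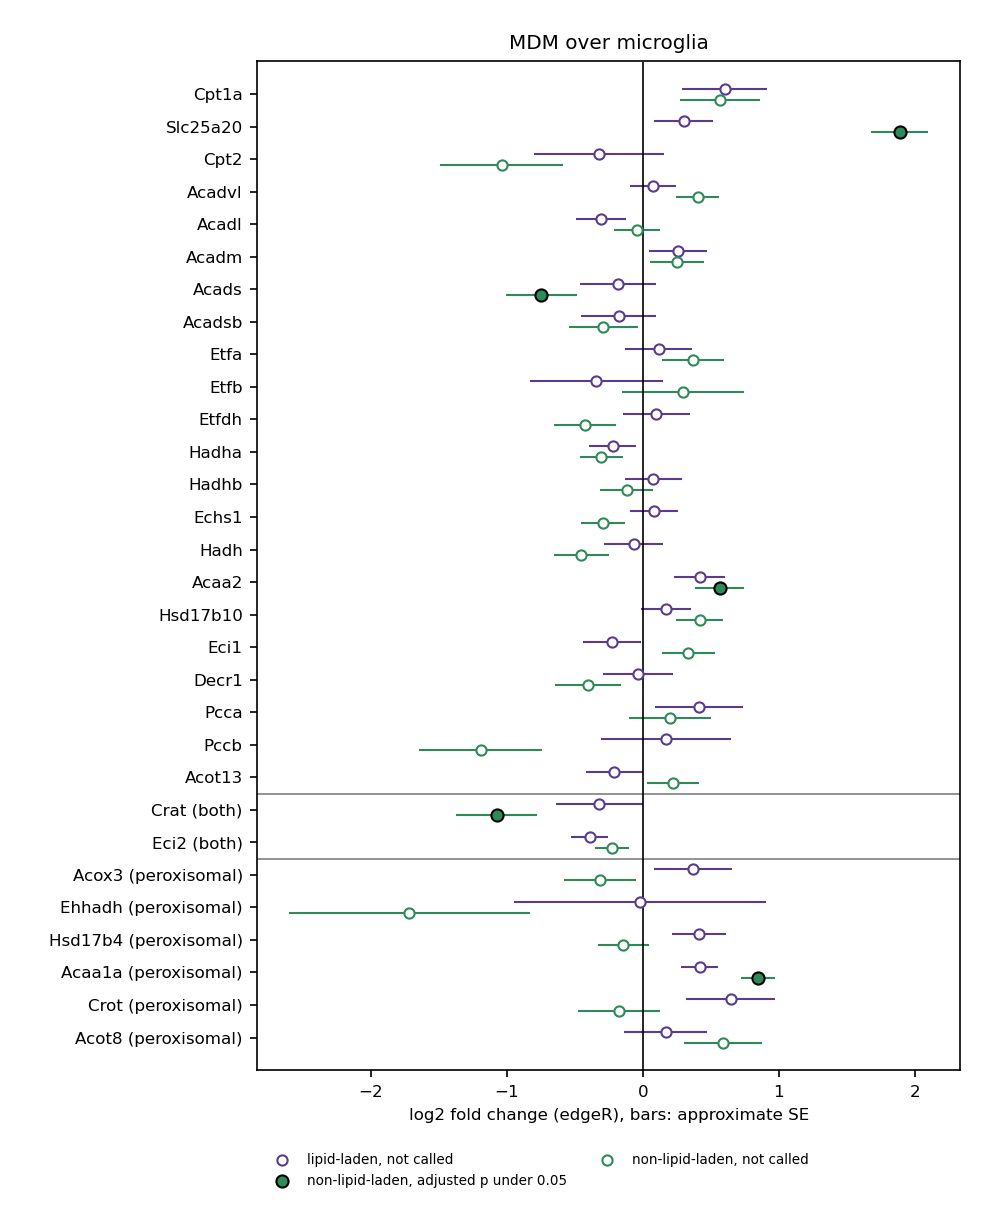
Points give the log2 fold change of each tested member in MDM over microglia, among lipid-laden and among non-lipid-laden cells, with bars for the approximate SE; filled points passed an adjusted p of 0.05. The 5 filled points belong to the non-lipid-laden cells, with Slc25a20 farthest from 0 at 1.89 and at 0.30 among lipid-laden cells.

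Across the compartments, the mean log2 CPM over the 22 tested mitochondrial members was 5.99 ± 0.11 in lipid-laden and 5.79 ± 0.12 in non-lipid-laden microglia, and 6.03 ± 0.15 in lipid-laden and 5.79 ± 0.12 in non-lipid-laden MDM (SD over libraries, n = 4, 4, 3 and 4). Over the 6 peroxisomal members it was 5.43 ± 0.13 in lipid-laden and 5.66 ± 0.14 in non-lipid-laden microglia, and 5.81 ± 0.11 in lipid-laden and 5.399 ± 0.54 in non-lipid-laden MDM. The mitochondrial mean minus the peroxisomal mean ranged from 0.52 to 0.61 in lipid-laden microglia, against -0.03 to 0.37 in non-lipid-laden microglia, without overlap, and was higher with lipid load in all 4 number-matched pairs. The lack of overlap rests on Ehhadh, which had between 24 and 171 counts in lipid-laden microglia and between 60 and 165 in non-lipid-laden microglia. With Ehhadh left out of the mean, a choice made after seeing the data, the ranges were -0.18 to 0.34 in lipid-laden microglia and -0.45 to -0.14 in non-lipid-laden microglia, and they overlapped. The number-matched differences, lipid-laden minus non-lipid-laden, were then 0.48, 0.20, 0.24 and 0.27, so all 4 pairs were still higher with lipid load. The low peroxisomal mean of 1 non-lipid-laden MDM library, number 431, also goes with Ehhadh, which had 0 counts there. In MDM the difference of the means was 0.06 to 0.37 with lipid load and 0.11 to 1.11 without, with overlap.

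**Figure D5:**
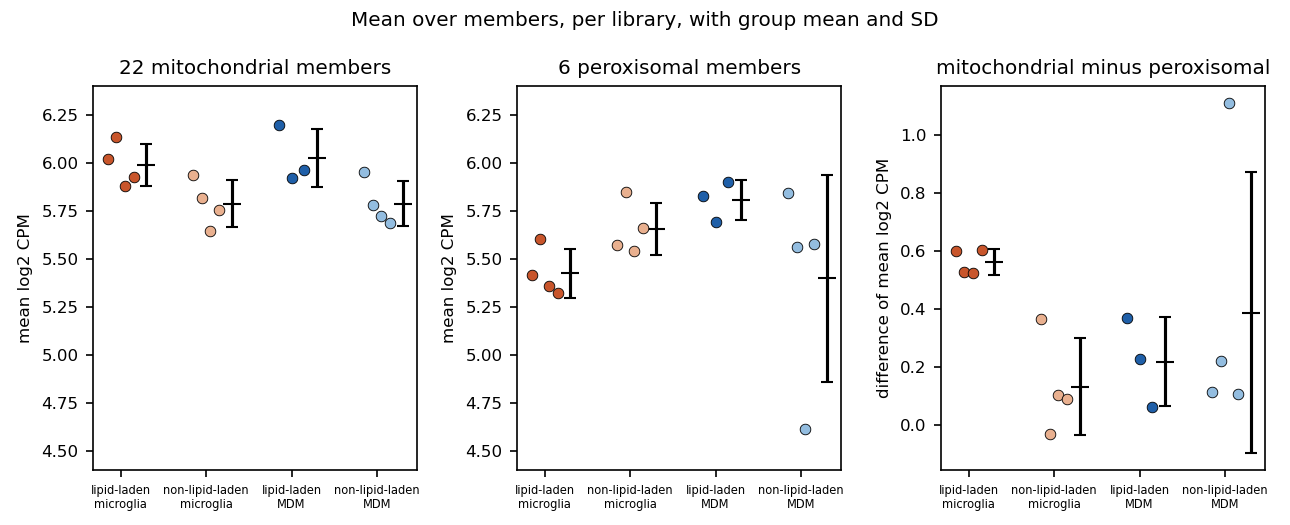
Each point is the mean log2 CPM of 1 library over the tested mitochondrial members, over the peroxisomal members, and the first minus the second, by group, with the group mean and SD; the y axes do not start at 0. Lipid-laden microglia lie at 0.52 to 0.61 in the last panel, and the lone high MDM point, at 1.11, is library 431 with 0 counts of Ehhadh.

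Pdk4, a kinase that blocks pyruvate dehydrogenase and a well known target of fatty acid signalling, was close to absent. It had 0 counts in all 4 lipid-laden microglia libraries, against 13, 0, 0 and 1 in non-lipid-laden microglia, and 0, 0 and 7 in lipid-laden MDM, against 0 in all 4 non-lipid-laden MDM libraries. A count of 0 allows up to 3 counts in a library, covering counting error only, so no fold is given.

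Other genes of the pathway give the setting. Of 23 tested further genes of acyl-CoA breakdown, mostly mitochondrial, 1 was called in MDM against microglia and 1 in lipid-laden against non-lipid-laden MDM, and both were Hsdl2, a hydroxysteroid dehydrogenase-like protein: it averaged 88.1 ± 11.6 CPM in MDM and 34.8 ± 9.05 CPM in microglia (log2 fold change 1.34 ± 0.23, adjusted p = 0.00052), and 49.4 ± 11.1 CPM in lipid-laden MDM, against the same 88.1 CPM without lipid load (-0.83 ± 0.25, adjusted p = 0.047). Of 20 tested further peroxisomal genes, 2 were called in lipid-laden against non-lipid-laden MDM, both higher. Abcd2, a peroxisomal importer of very-long-chain acyl-CoA, averaged 138 ± 38.6 CPM in lipid-laden MDM and 28.6 ± 13.6 CPM in non-lipid-laden MDM (2.28 ± 0.32, adjusted p = 0.00042). Abcd3, an importer of branched and long chains, averaged 72.7 ± 17.5 CPM in lipid-laden and 32.0 ± 8.76 CPM in non-lipid-laden MDM (1.18 ± 0.23, adjusted p = 0.0045). Abcd2 averaged 185 ± 52.3 CPM in non-lipid-laden microglia, so here too lipid-laden MDM lay on the microglia side.

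Between MDM and microglia without lipid load, 4 of the 20 were higher and 3 lower. Abcd2 was lower in MDM (-2.69 ± 0.31, adjusted p = 1.5e-05), Scp2, a sterol carrier with a thiolase form, higher with 259 ± 32.3 CPM in MDM, against 127 ± 12.1 CPM in microglia (1.03 ± 0.15, adjusted p = 0.00012), and Pecr, trans-enoyl-CoA reductase, lower with 21.8 ± 7.86 CPM in MDM, against 61.9 ± 9.11 CPM in microglia (-1.51 ± 0.26, adjusted p = 0.00053). None of 16 peroxisome assembly genes was called in any of the 5 comparisons (edgeR), where at most 2 had an unadjusted p under 0.05. The lipid effect differed between MDM and microglia for Abcd2 (2.46 ± 0.42, adjusted p = 0.0060) and Abcd3 (1.32 ± 0.31, adjusted p = 0.033).

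Of 14 genes that activate or import fatty acids, 2 were called in lipid-laden over non-lipid-laden MDM, Acss1 and Acsl6. Acss1 is mitochondrial acetyl-CoA synthetase and averaged 104 ± 21.4 CPM in lipid-laden and 47.0 ± 6.67 CPM in non-lipid-laden MDM (1.14 ± 0.21, adjusted p = 0.0032). Acsl6, a long-chain acyl-CoA synthetase, averaged 2.68 ± 1.06 CPM in lipid-laden MDM and had 0 counts in all non-lipid-laden MDM (adjusted p = 0.0044). Between MDM and microglia without lipid load, 1 of the 14 was called higher in MDM and 2 lower. The higher one was Acsl1, which activates long-chain fatty acids, with 43.0 ± 7.49 CPM in MDM, against 24.2 ± 10.1 CPM in microglia (0.83 ± 0.26, adjusted p = 0.032). Of 21 tested regulators, Rxra, the partner receptor of PPARs, was higher in lipid-laden MDM at 49.2 ± 14.5 CPM, against 17.9 ± 5.57 CPM in non-lipid-laden MDM (1.46 ± 0.29, adjusted p = 0.0054), and Pdk1 was the other called regulator there (0.75 ± 0.20, adjusted p = 0.033). Of 17 tested genes of mitochondrial content, 1 was called in that comparison: Mdh2, mitochondrial malate dehydrogenase, fell to 630 ± 152 CPM in lipid-laden MDM, against 1735 ± 144 CPM in non-lipid-laden MDM (-1.46 ± 0.18, adjusted p = 0.00017). In microglia no gene on these lists was called with lipid load by edgeR, and at an unadjusted p under 0.05 there were 1 further acyl-CoA breakdown gene, 3 further peroxisomal genes, no assembly gene, 2 activating or importing genes, 1 regulator and 1 gene of mitochondrial content. Cat, the peroxisomal catalase, had the smallest p there among the further peroxisomal genes, at 145 ± 9.48 CPM in lipid-laden and 103 ± 14.8 CPM in non-lipid-laden microglia (0.49 ± 0.14, adjusted p = 0.28). Glycolysis and hypoxia genes had positive fold changes in 25 of 25 in that comparison, with a median of 0.70, none called and 20 at an unadjusted p under 0.05, and summed to 12669.5 to 19829.9 CPM in lipid-laden microglia, against 8762 to 12812.9 CPM in non-lipid-laden microglia. Immediate early genes summed to 7974 to 11735.4 CPM in lipid-laden microglia, against 11805.9 to 16982 CPM in non-lipid-laden microglia, with 18 of 18 fold changes below 0. No cell type marker was called between the microglia groups by edgeR. Fold changes were above 0 for 1 of 10 microglia markers (median -0.36) and 1 of 10 dendritic cell markers (median -1.42). They were above 0 for 6 of 10 MDM markers (median 0.14) and 5 of 5 tested neutrophil markers (median 0.98). At an unadjusted p under 0.05 there were 0, 4, 5 and 1 of these. The part of any of these lists in the values of the members was not tested.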

How the data were processed

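Whole-number read counts per gene for 15 libraries were deposited by the authors as 1 table, not normalized, with Ensembl identifiers, symbols and coordinates, per the file header. Reads had been placed on mm10, per the submitters' processing notes. RNA was primed with oligo-dT and copied by template switching, per the labels' protocols. Aligner, counter and strandedness: not given in the sources used here. 1 entry without a gene, with 0 counts, was left out.

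The test was edgeR's quasi-likelihood test (edgeR 4.0.16, R 4.3.3) with TMM scaling, filterByExpr (minimum count 10, minimum total 15), all 15 libraries in 1 fit with 1 coefficient per group, and Benjamini-Hochberg adjustment over all genes tested. A call is an adjusted p under 0.05. The approximate SE divides the log2 fold change by the root of its F statistic. Alternatives were RLE scaling, DESeq2 1.42.0, limma-voom (limma 3.58.1), no filter, the library number as a block, only the groups compared, and each library left out in turn. Scripts were tested on simulated data. No 2 libraries of a group were alike within counting noise (chi-square per degree of freedom at least 17.3).

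Whether library numbers pair the libraries was read from correlations of same-numbered deviations from the group means. They were all over 0.1 for lipid-laden against non-lipid-laden microglia (0.124 to 0.256) and for lipid-laden MDM against lipid-laden microglia (0.107 to 0.168), and these were taken as paired. They were not for the other comparisons.

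Members and lists were chosen with earlier results of these data known. All members are named at least once; called members get full values, with the 3 of smallest p where fewer than 3 were called; up to 3 genes of smallest p come from each other list, of which the text gives some. Gene coordinates are those of the deposited table, and transcript lengths are of the principal transcripts in GENCODE M21. Promoters are from RefSeq.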

Additional observations from a re-analysis of the deposited data

Results flagged for a closer look

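In 7 of the 91 sets of 4 libraries examined (each member in each group of 4), the highest or lowest library stood apart from the other three beyond Dixon's critical value; chance alone gives about 1 in 20. In lipid-laden microglia these were Crat in library 221 at 59.15 CPM (the others 102.9 to 111.3), Acadvl in library 224 at 56.47 CPM (the others 77.1 to 80.9) and Acadl in library 718 at 153.6 CPM (the others 112.7 to 115.8). In non-lipid-laden microglia they were Acadm in library 431 at 56.0 CPM (the others 97.7 to 101.9), Hsd17b4 in library 431 at 125.3 CPM (the others 221.3 to 231.2), Etfa in library 221 at 189.9 CPM (the others 134.7 to 143.8) and Pdk4 in library 221 at 1.34 CPM, from 13 counts. The set included the same library more than once only for non-lipid-laden microglia 221 and 431.

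The fold change of Slc25a20 between lipid-laden and non-lipid-laden cells differed between the cell types, by -1.59 on the log2 scale (MDM minus microglia, tested as a difference of fold changes). No other member passed that test. Its group means were 62.6 CPM in lipid-laden and 49.6 CPM in non-lipid-laden microglia, and 77.0 CPM in lipid-laden and 184 CPM in non-lipid-laden MDM. Markers of other cells also differed between the MDM groups, and their part in this was not tested.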

How the results depend on the processing

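Calls of Slc25a20 (3 comparisons) and of Acaa1a (MDM against microglia) held in every alternative run. Over all single members and alternatives, 2326 values kept their side of the threshold, 27 lost it and 17 gained it, with no called value reversed. Members called in lipid-laden against non-lipid-laden MDM numbered 3, and 5 with DESeq2, 1 without the lipid-laden libraries numbered 221 (left out after seeing the data) and 1 to 4 with single libraries left out. In MDM against microglia they numbered 5, and 2 to 7 with single libraries left out. All genes called in that comparison numbered 3442, 4130 with DESeq2 and 2755 to 3158 with single libraries left out. Between the lipid-laden groups they numbered 0, and 1 with DESeq2. Over all genes, calls were 0 between the microglia groups, 17 without a filter and 0 to 64 with single libraries left out; 1213 between the MDM groups, 1929 with DESeq2 and 657 to 1052 with single libraries left out; 413 between the lipid-laden groups, 776 with DESeq2, 176 from those groups alone and 168 to 378 with single libraries left out; and 375 for the difference of effects, 934 with DESeq2 and 186 to 452 with single libraries left out.

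With the library number as a block, member calls were 0 between the microglia groups, 4 between the MDM groups, 6 in MDM against microglia, 0 between the lipid-laden groups and 1 for the difference; the paired comparisons changed no member's call. Over all 14843 genes tested, the block called 119, 1529, 3969, 569 and 657 genes in the same order of comparisons. The member counts are to be read beside these.

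Medians near 0 moved. With Crat and Eci2 counted as peroxisomal, the peroxisomal median was 0.014 between the microglia groups and 0.27 between the lipid-laden groups; counted as mitochondrial, the mitochondrial median was -0.080 in MDM against microglia. Without the lipid-laden libraries numbered 221, the median difference of effects was -0.048 over the members and -0.12 over the mitochondrial ones. With single libraries left out, medians ran from -0.27 to -0.012 (peroxisomal, microglia groups), -0.19 to 0.034 (all members, MDM against microglia), -0.034 to 0.18 and -0.073 to 0.16 (all and mitochondrial members, lipid-laden groups), and -0.083 to 0.18 and -0.12 to 0.13 (the same, difference of effects). With Ehhadh left out, the mean mitochondrial minus peroxisomal log2 CPM was 0.0091 in lipid-laden and -0.29 in non-lipid-laden microglia, and -0.38 in lipid-laden and -0.47 in non-lipid-laden MDM. The cause of these changes was not tested. Counts of Etfb, Ehhadh and Pdk4 limit what can be read from them.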
